A study of Homo sapiens and Mus musculus with 69 samples.

Results

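The data are the response of COR-L88 cells, an established human small cell lung cancer (SCLC) line, to the LSD1 inhibitor TAS1440. The members were chosen by the cell line and treatment in the sample labels and are 6 of the 69 RNA-Seq libraries of the series, with 3 libraries (numbered 10, 11 and 12) of cells given the solvent DMSO and 3 (13, 14 and 15) of cells given 100 nM TAS1440. By the study's methods, COR-L88 cells were collected after 28 days of treatment. Set beside them were COR-L88 cells given 100 nM TAS1440 plus 2 μM of the γ-secretase inhibitor (GSI) BMS-708163 (libraries 16, 17 and 18), COR-L88 cells labelled STING_KO and given DMSO (40, 41 and 42) or TAS1440 (43, 44 and 45), and cells of a different SCLC line, NCI-H69, which carry a doxycycline-inducible vector for the NOTCH1 intracellular domain (N1ICD) and were grown without doxycycline (49, 50 and 51) or with 1 μg/mL of it (52, 53 and 54), of which adherent cells were collected by the methods, after a longer culture than that of COR-L88 by the study's supplement. All COR-L88 groups stem from 1 cell line. *STING1* was disrupted with CRISPR-Cas9 and a single target sequence. Single-cell knockout clones of COR-L88 were made, and which or how many of them the STING_KO libraries come from is not given in the sources used here. No library of cells given GSI alone was used here. The labels do not say whether the 3 libraries of a group came from separate cultures, so *P* values measure the spread between these libraries, which may be technical.

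LSD1, encoded by *KDM1A*, is a demethylase of histone H3 that works in a complex with CoREST proteins and histone deacetylases and is brought to DNA by SNAG domain factors such as INSM1 and GFI1. Notch receptors are cut by the ADAM10 and ADAM17 proteases and then by γ-secretase, after which the intracellular domain enters the nucleus, binds RBPJ and turns on repressors such as HES1 and HEY1 that hold down neuroendocrine (NE) factors. In SCLC, Notch activity is known to oppose the NE state, and most NE SCLC cells carry little MHC class I on their surface.

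Values are log2(RPKM + 1), called log2 values below, and a difference between group means on that scale is called a log2 fold change; it understates changes of genes with low values. Levels were compared only within a gene, since the gene lengths behind the RPKM values are not given. A gene was called when the limma adjusted *P* was under 0.05 and the log2 fold change was at least 1 in either direction. "Rose" and "fell" are used below for called genes only. In bulk RNA, fewer cells of a type and less RNA per cell cannot be told apart.

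A large share of genes differed between the TAS1440 and DMSO libraries of COR-L88 cells. Of 13134 genes tested, 2991 were called, which is 22.8%, with 2011 (15.3%) higher and 980 (7.46%) lower with TAS1440. The 3 DMSO and the 3 TAS1440 libraries did not overlap for 2966 of the called genes, and for 62.2% of all genes tested. The log2 fold change was at least 3 for 295 genes that rose and 80 that fell, and it ran from -9.64 to 7.69 with a median of 0.00797 over all genes. The split between directions depends on how libraries are scaled. After quantile normalization 1689 genes were higher and 1325 lower, and after centring each library on its median the counts were 1742 and 1294, with the median of all genes moved by -0.149 and -0.137.

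**Figure D1:**
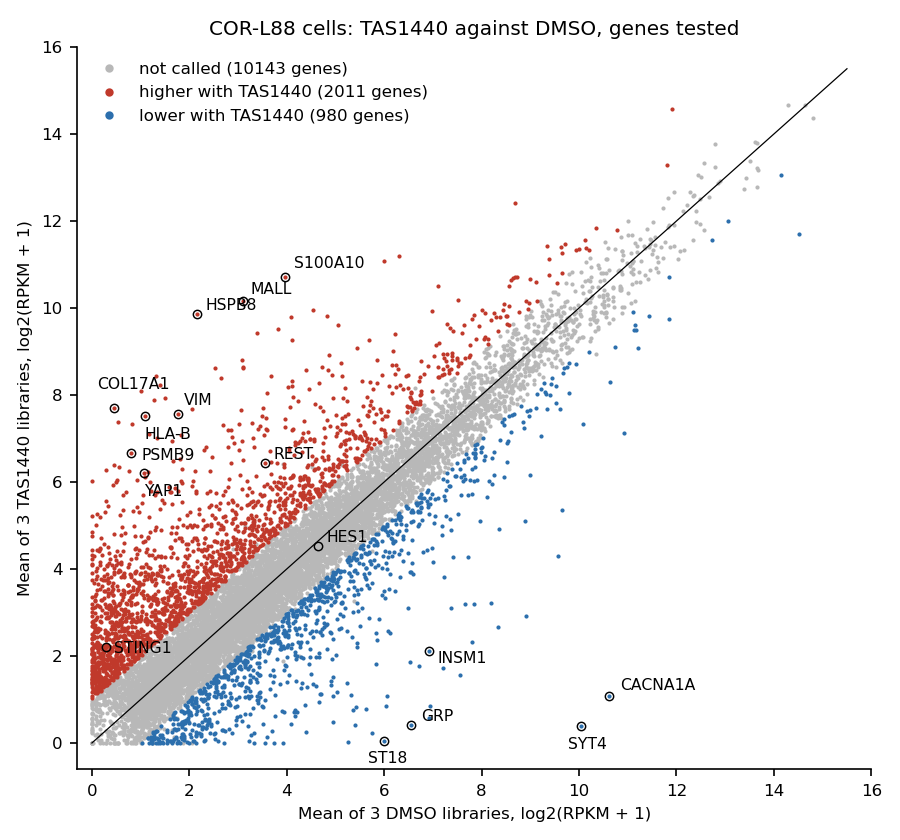
Mean log2(RPKM + 1) of each tested gene in the 3 DMSO libraries (x axis) and the 3 TAS1440 libraries (y axis) of COR-L88 cells, with 1 point per gene, the line of equal values, and named genes circled. Red points are the 2011 genes higher with TAS1440, blue points the 980 lower and grey points those not called, and SYT4 and CACNA1A stand far below the line with DMSO means of 10.03 and 10.63.

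The libraries of a group resembled each other. Pearson's r over genes was 0.986 to 0.991 within DMSO, 0.981 to 0.991 within TAS1440 and 0.874 to 0.896 between the groups. Relative library size, read from the ratios of low values between libraries, was 0.843 to 1.23 times the median of the 6 for DMSO and 0.775 to 1.30 for TAS1440, and absolute depth is unknown. TAS1440 library 13 stood somewhat apart, with 156 genes lower and 84 higher by at least 1 than in both other TAS1440 libraries, against 20 to 71 and 26 to 62 in the other 5 libraries, each set against its own group. The label was checked with 8 markers of NE SCLC, of which 5 had log2 values of at least 1 in every library, and their summed log2 value was 48.1 to 48.7 with DMSO and 15.8 to 17.5 with TAS1440.

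The genes that fell most included vesicle and ion channel genes, and those that rose most included genes of the cell surface and matrix. *SYT4*, a synaptotagmin of secretory vesicles, had log2 values of 9.67, 10.08 and 10.35 with DMSO and 0.39, 0.42 and 0.35 with TAS1440, a log2 fold change of -9.64 (SE 0.17, limma adjusted *P* = 3.65e-13). *CACNA1A* (chromosome 19, 13317256 to 13743839 of GRCh37), the pore subunit of P/Q-type calcium channels, had 10.56, 10.88 and 10.43 with DMSO and 1.30, 1.05 and 0.90 with TAS1440. These were the 2 largest falls, and every DMSO library was above every TAS1440 library by more than 9. The nicotinic receptor subunit gene *CHRNB2* (-5.99), the dopamine β-hydroxylase gene *DBH* (-6.35), *GRP*, *HABP2* (-6.08), *ST18* (-5.95), *DRC1* (-5.68) and *PEX5L* (-5.54) were also among the 10 largest falls. *DRC1* was uneven with TAS1440, at 0, 4.27 and 3.71 in libraries 13, 14 and 15.

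On the other side, *HSPB8* (chromosome 12, 119609360 to 119662660), a small heat shock protein, had log2 values of 2.74, 2.07 and 1.68 with DMSO and 9.40, 10.34 and 9.82 with TAS1440, the largest rise, with a log2 fold change of 7.69 (SE 0.53, limma adjusted *P* = 7.71e-08). *COL17A1* (chromosome 10, 105791044 to 105845638), the hemidesmosomal collagen of basal epithelial cells, had 0.42, 0.32 and 0.60 with DMSO and 7.38, 7.58 and 8.13 with TAS1440. All 3 TAS1440 values of both genes lay at least 6 above the gene's DMSO mean. *EMP1* (7.11), *MALL* (7.08), *MGP* (7.07), *CD97* (6.84), *GKN2* (6.82), *S100A10* (6.75), *EMILIN2* (6.61) and *BST2* (6.51) followed. *GKN2* was listed at 0 in DMSO libraries 10 and 12 but at 4.22 in library 11, and its SE was 1.45.

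The gene of the drug target itself was lower with TAS1440, and some of its partners fell. *KDM1A* (chromosome 1, 23345936 to 23410182) had log2 values of 5.35, 5.32 and 5.30 with DMSO and 4.24, 4.35 and 4.47 with TAS1440. The TAS1440 libraries were lower in all 3 cases, and the log2 fold change of -0.97 (SE 0.15, limma adjusted *P* = 7.92e-05) was just short of the size needed for a call. Of 17 tested genes of the CoREST and LSD1 list, 1 rose and 5 fell, against 15.3% and 7.46% of all genes, with a median log2 fold change of -0.40. The genes that fell were *INSM1*, which recruits LSD1 (-4.79), *SNAI1*, a SNAG domain repressor (-1.81), *RCOR2*, a CoREST protein (-1.37), *PHF21A* (-1.10), a reader of unmethylated histone H3, and *HMG20B*, a DNA-binding subunit (-1.02). *RCOR1* (0.44), *HDAC1* (0.20), *HDAC2* (-0.62) and *GFI1* (-0.12) were not called.

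*REST* (chromosome 4, 57774042 to 57832974), the repressor of neuronal genes in non-neuronal cells, was the gene of that list that rose. Its log2 values were 3.55, 3.57 and 3.52 with DMSO and 6.25, 6.57 and 6.48 with TAS1440, a log2 fold change of 2.89 (SE 0.23, limma adjusted *P* = 2.74e-07). Every TAS1440 library was above every DMSO library by more than 2.

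The genes for the receptors NOTCH1, NOTCH2 and NOTCH3 rose. *NOTCH1* (chromosome 9, 139388885 to 139440500) had log2 values of 0.61, 0.74 and 0.63 with DMSO and 1.99, 2.79 and 2.26 with TAS1440, a log2 fold change of 1.69 (SE 0.39, limma adjusted *P* = 0.00214). *NOTCH2* (chromosome 1, 120454176 to 120643366) had 2.04, 2.04 and 1.65 with DMSO and 3.79, 4.89 and 4.23 with TAS1440, a log2 fold change of 2.39 (SE 0.21). Both were highest in library 14 and lowest in library 13, and neither overlapped DMSO. *NOTCH3* rose from 0.68 ± 0.091 to 3.07 ± 0.33 (mean ± SD, n = 3), and *NOTCH4*, at 0.79 ± 0.073 and 0.15 ± 0.022, was below the filter on low values. Of 14 tested receptor and processing genes, 5 rose, against 15.3% of all genes, and 1 fell, a share near the 7.46% of all genes. The median log2 fold change was 0.78. *ADAM17*, the protease of the first cut (1.11), and *NCSTN*, a γ-secretase subunit (1.01), were the other genes that rose, while the Fringe glycosyltransferase gene *LFNG* fell (-2.65). After quantile normalization or centring 3 in place of 5 genes rose. *ADAM10* (0.26) and *PSEN2*, for a catalytic subunit of γ-secretase (0.77), were not called.

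Delta-like ligand genes fell. *DLL3* (chromosome 19, 39989535 to 39999121), an inhibitory ligand that is a surface target in SCLC, had log2 values of 4.89, 5.15 and 5.01 with DMSO and 2.34, 1.94 and 1.77 with TAS1440 (SE of the difference 0.23, limma adjusted *P* = 1.76e-07), and no TAS1440 library came within 2 of a DMSO library. *DLL4* fell by 4.03 and *DLL1* by 1.13 on the log2 scale. The Jagged genes *JAG1* (0.46) and *JAG2* (0.30) and the δ-like homolog gene *DLK2* (0.50) were not called. Thus 3 of 6 tested ligand genes fell, against 7.46% of all genes.

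Genes of Notch transcription and its targets went both ways. *HES1* (chromosome 3, 193853937 to 193856521) had log2 values of 4.87, 4.44 and 4.63 with DMSO and 4.93, 4.18 and 4.47 with TAS1440, and the groups overlapped, with a log2 fold change of -0.12 (SE 0.24, limma adjusted *P* = 0.69). *HEY1* had 3.86, 3.59 and 3.85 with DMSO and 2.25, 2.57 and 2.97 with TAS1440, a log2 fold change of -1.17 (limma adjusted *P* = 0.000885), and its 3 TAS1440 values all lay below the DMSO values. Of 15 tested genes of this list, 2 rose, a share near the 15.3% of all genes, and 4 fell, against 7.46% of all genes, with a median of -0.18. The 2 that rose were *MAML2*, a coactivator of the Notch complex (2.35), and *HES2* (1.29), and the others that fell were *HES6* (-2.41), *MAML3* (-1.76) and *DTX3* (-1.09). *HEYL* was at 0.94 and *NRARP* at -0.61, and neither was called.

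The promoter of *HES1* is shown because its sites for the Notch transcription factor RBPJ are a textbook example and the gene was not called. The 250 bases before its start site (RefSeq promoter sequence, chr3:193853687-193853936, plus strand, GRCh37) read as follows, with capitals for the RBPJ motif TGGGAA.
HES1: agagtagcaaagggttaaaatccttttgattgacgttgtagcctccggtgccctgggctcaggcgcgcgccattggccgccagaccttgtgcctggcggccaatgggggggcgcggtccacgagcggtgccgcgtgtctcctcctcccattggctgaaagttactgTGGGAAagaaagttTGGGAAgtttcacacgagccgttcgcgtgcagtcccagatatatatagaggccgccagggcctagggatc
The motif stands at 84 and 70 bases before the start. Over both strands of windows from 250 bases before to 50 after the start, TGGGAA occurred in 5 of 12 promoters of the Notch target list, in 19.5% of promoters of genes that rose, in 20.8% of those of genes that fell and in 21.8% of all 9849 tested genes with a promoter sequence.

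Transcription factors of the NE state fell. *INSM1* (chromosome 20, 20348748 to 20351593), an NE zinc finger factor, had log2 values of 6.71, 7.06 and 6.97 with DMSO and 1.95, 2.16 and 2.26 with TAS1440, a log2 fold change of -4.79 (SE 0.25, limma adjusted *P* = 5.86e-09). Every TAS1440 library was below every DMSO library by more than 4. *NKX2-1* (chromosome 14, 36985597 to 36990354), a lung lineage factor, had 6.91, 6.67 and 6.13 with DMSO and 5.14, 5.39 and 5.54 with TAS1440 and fell by 1.21. Of 21 tested NE and neural transcription factors, 13 fell and 8 were not called, against 7.46% of all genes tested that fell, and the median log2 fold change was -1.17. *ST18* and *FOXA2*, a foregut factor (-2.67), were among the others with the largest falls. *FOXA1* (-0.098), *ISL1* (0.18), *POU3F2* (-0.39) and *NEUROD1* were not called, and *NEUROD1*, the factor of a different NE SCLC class, was at 5.69 ± 0.11 with DMSO and 6.24 ± 0.33 with TAS1440.

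Of 27 tested genes for secretory granules and NE markers, 20 fell and 3 rose, against 7.46% and 15.3% of all genes. The median was -2.25. *CHGA* (chromosome 14, 93389495 to 93401630), which encodes the granule protein chromogranin A, had log2 values of 4.69, 4.60 and 4.84 with DMSO and 1.33, 1.27 and 0.77 with TAS1440. *SYP* (chromosome X, 49044268 to 49056677), for the vesicle protein synaptophysin, had 5.00, 4.80 and 5.03 with DMSO and 0.46, 0.38 and 0.59 with TAS1440. *GRP*, for gastrin-releasing peptide, a growth factor of NE cells, had 6.77, 6.38 and 6.51 with DMSO and 0.26, 0.47 and 0.49 with TAS1440. No TAS1440 library reached a DMSO library for any of the 3 genes, whose log2 fold changes were -3.59, -4.47 and -6.15 (SE 0.16, 0.13 and 0.26). *SCG2* (-4.85) and the prohormone convertase gene *PCSK1* (-4.65) fell as well. *PTPRN* (-2.37), also counted, passed the filter only through the DMSO libraries, so the filter set its direction. Other granule genes differed from these. *PCSK2* (1.52), *PAM* (1.21), which amidates peptides, and the neuropeptide gene *GAL* (2.89) rose, while *CPE* (-0.19), *SCG5* (-0.26) and *UCHL1* (-0.78) were not called.

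The *CHGA* promoter is shown because it holds a cAMP response element, TGACGTCA, close to the start. Its 250 bases (RefSeq, chr14:93389245-93389494, plus strand, GRCh37) are printed with that motif in capitals.
CHGA: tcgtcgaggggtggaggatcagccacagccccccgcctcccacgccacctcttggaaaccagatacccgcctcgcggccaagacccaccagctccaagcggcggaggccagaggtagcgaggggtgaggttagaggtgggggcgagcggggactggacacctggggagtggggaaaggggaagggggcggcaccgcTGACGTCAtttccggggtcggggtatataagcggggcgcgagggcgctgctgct
The motif starts 54 bases before the start site. It occurred in 3.26% of all tested promoters, 2.42% of those of genes that rose and 3.04% of those of genes that fell.

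Of 37 tested synaptic and neuronal genes, 26 fell and 11 were not called, against 7.46% of all genes that fell. The median was -1.57. Besides *CACNA1A* and *CHRNB2*, the largest falls were of *UNC13A*, which primes vesicles (-4.98), and the sodium channel gene *SCN2A* (-3.85). *TUBB3* (-0.099), *KIF1A* (-0.051), *L1CAM* (-0.43) and *SYT1* (0.69) were not called, and *SYT1* was at 9.86 ± 0.13 and 10.55 ± 0.17.

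*MYCL* fell and *MYC* rose. *MYCL* (chromosome 1, 40361100 to 40367928), the MYC member common in NE SCLC, had log2 values of 7.68, 8.22 and 7.98 with DMSO and 4.52, 5.39 and 5.41 with TAS1440, a log2 fold change of -2.85 (SE 0.33, limma adjusted *P* = 7.33e-06). *MYC* had 1.95, 1.91 and 1.72 with DMSO and 5.12, 4.93 and 5.00 with TAS1440, a log2 fold change of 3.16 (SE 0.32, limma adjusted *P* = 2.35e-06). *MYCN* was listed at 0 in every library of both groups. Of the 9 tested genes 1 rose, a share near the 15.3% of all genes, and 2 fell, against 7.46% of all genes. *MXD3*, a MYC antagonist, was the other that fell (-1.94), and *MAX*, the partner of MYC proteins (0.51), was not called. The list's median of 0.10 changed sign to -0.092 after quantile normalization and -0.032 after centring.

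**Figure D2:**
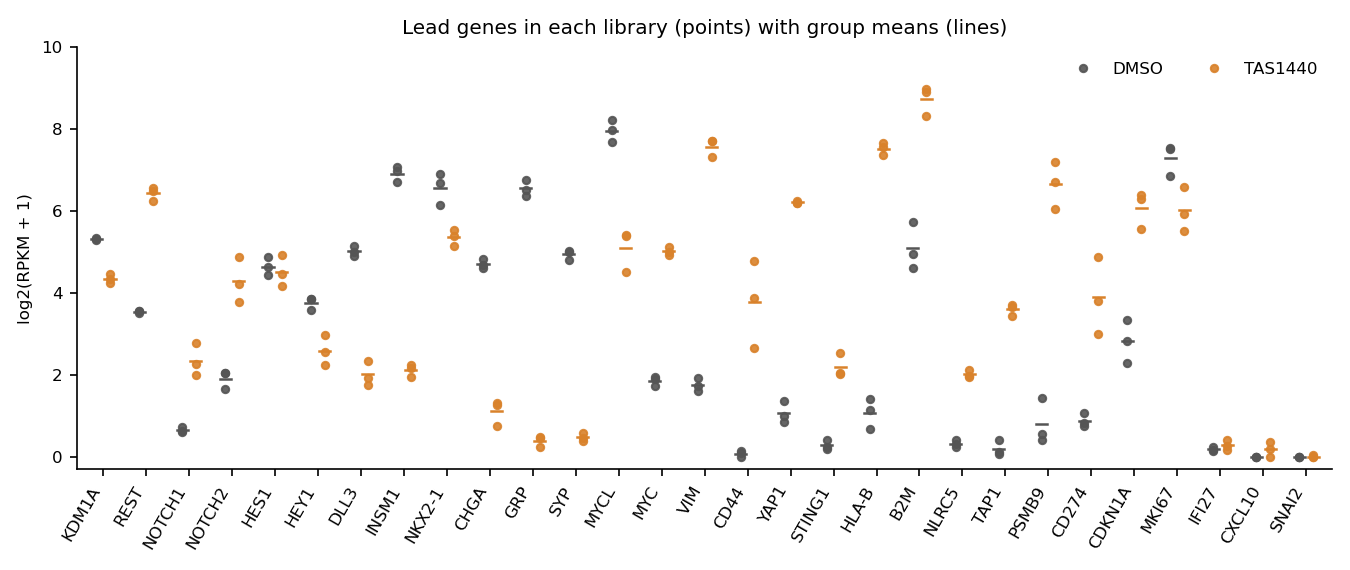
log2(RPKM + 1) of 29 lead genes in each of the 3 DMSO (grey) and 3 TAS1440 (orange) libraries, with points for libraries and lines for group means. INSM1, GRP and SYP do not overlap and lie more than 4 lower with TAS1440, HLA-B, PSMB9, VIM and YAP1 lie more than 5 higher, and HES1 overlaps.

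Nearly all tested genes of mesenchymal cells and adhesion rose. *VIM* (chromosome 10, 17270240 to 17279592), the intermediate filament of mesenchymal cells, had log2 values of 1.73, 1.62 and 1.93 with DMSO and 7.32, 7.70 and 7.70 with TAS1440, a log2 fold change of 5.81 (SE 0.22, limma adjusted *P* = 4.8e-10). *CD44* (chromosome 11, 35160429 to 35253949), a hyaluronan receptor, had 0.091, 0 and 0.14 with DMSO and 3.87, 4.79 and 2.65 with TAS1440, a log2 fold change of 3.69 (SE 0.39). The *VIM* values of a group lay close together, while those of *CD44* with TAS1440 spread over more than 2. Of 46 measured genes of the list 37 were tested, of which 33 rose and 4 were not called, against 15.3% of all genes that rose, with a median log2 fold change of 2.84. When any TAS1440 library was left out 34 were tested, since *ACTA2*, *ITGA5* and *S100A11* passed the filter only through these libraries. *S100A10*, an annexin partner (6.75), and *THBS1*, for thrombospondin (5.71), were beside *VIM* among the largest rises. *CDH2*, for N-cadherin (0.51), was not called, and the fibrillar collagen gene *COL1A1*, at 0.011 ± 0.019 and 0.42 ± 0.11, was not tested. After quantile normalization 29 and after centring 31 of the 37 genes rose.

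Genes of this list are also expressed by stromal cells. The summed log2 value of 7 fibroblast markers was 1.36 to 2.00 with DMSO and 4.09 to 6.39 with TAS1440, with 1 of the 7 at 1 or more in every library, and that of 4 endothelial markers was 0.704 to 0.850 and 2.23 to 4.49. *KDR*, an endothelial receptor gene named after its values were seen, had 0.56, 0.15 and 0.45 with DMSO and 4.08, 3.34 and 1.92 with TAS1440. The part of other cell types in the result was not tested, and the cells are a line grown in culture.

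More epithelial genes rose than fell. *CDH1*, for E-cadherin (1.47), and the keratin genes *KRT8* (1.42) and *KRT7* (1.26) rose with *MAL2* (1.25), the desmosomal gene *DSP* fell (-1.05), and *EPCAM* (0.33) and *ESRP1* (-0.20) were not called. In all, 6 of 20 tested epithelial genes rose and 1 fell, against 15.3% and 7.46% of all genes, with a median of 0.82. *KRT7* passed the filter only through the TAS1440 libraries, so the filter set its direction. Among transcription factors of epithelial-mesenchymal transition (EMT), *SNAI1* fell, *ZEB1* (0.72) was not called, and *SNAI2* was listed at 0, 0 and 0 with DMSO and 0, 0.038 and 0 with TAS1440 and was not tested. Only 4 of 9 EMT factors were tested, and *SNAI1* was the 1 called, against 7.46% of all genes that fell.

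*YAP1* (chromosome 11, 101981178 to 102104155), the Hippo pathway coactivator that is low in NE SCLC, had log2 values of 1.36, 1.00 and 0.86 with DMSO and 6.20, 6.24 and 6.20 with TAS1440, a log2 fold change of 5.14 (SE 0.14, limma adjusted *P* = 4.29e-11). The TAS1440 values were nearly equal to each other. Of 22 tested genes of the YAP and TEAD list, 17 rose and 5 were not called, against 15.3% of all genes that rose. The median was 1.89, and among those that rose were the targets *ANKRD1* (5.30) and *AMOTL2* (3.90) and the tissue factor gene *F3* (4.44). *TEAD1* (-0.13) and *LATS1* (-0.20) were not called. In the TGF-β and BMP list, 12 of 19 tested genes rose, against the same 15.3%. They were led by the inhibitory SMAD gene *SMAD6* (5.26), *BMP4* (3.44), *ID3* (2.71) and the receptor gene *TGFBR2* (2.38), while *ID2* fell (-2.19) and *SMAD2* (0.14) was not called.

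Most MHC class I genes rose. *HLA-B* (chromosome 6, 31321649 to 31334844), a class I heavy chain, had log2 values of 1.42, 0.69 and 1.14 with DMSO and 7.36, 7.55 and 7.65 with TAS1440, a log2 fold change of 6.44 (SE 0.56, limma adjusted *P* = 5.5e-07). *B2M* (chromosome 15, 45003556 to 45011049), the light chain, had 5.73, 4.62 and 4.96 with DMSO and 8.90, 8.31 and 8.99 with TAS1440, a log2 fold change of 3.63 (SE 0.30). *NLRC5* (chromosome 16, 57023397 to 57117443), the activator of class I genes, had 0.23, 0.42 and 0.31 with DMSO and 2.13, 1.95 and 1.98 with TAS1440. None of the 3 genes overlapped between the groups.

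Genes for peptide supply rose with the heavy and light chains. *TAP1*, a subunit of the peptide transporter, had log2 values of 0.41, 0.13 and 0.079 with DMSO and 3.72, 3.45 and 3.67 with TAS1440, a log2 fold change of 3.40 (SE 0.22, limma adjusted *P* = 4.28e-08). *PSMB9*, an immunoproteasome subunit, had 1.43, 0.56 and 0.41 with DMSO and 6.05, 6.71 and 7.20 with TAS1440, a log2 fold change of 5.86 (SE 0.51). Both lay at least 3 above every DMSO library in every TAS1440 library. The 2 genes overlap on opposite strands (chromosome 6, 32812986 to 32821593 and 32811913 to 32827628), and whether counting used the strand is not given, so their reads may be shared. *HLA-E*, a ligand of NK cell receptors, rose by 5.07. Of 17 tested genes of the class I list, 13 rose and 4 were not called, against 15.3% of all genes that rose, with a median of 1.92. The 4 were *CANX* (0.25), *PSME1* (0.30), *PSME2* (0.20) and *CALR* (0.92), which encode chaperones and proteasome activators. *HLA-B* has near-identical paralogs among which counting can split reads. Of the class II list only *CTSS*, a lysosomal protease (5.68), was called among 3 tested genes, against 15.3% of all genes that rose.

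The promoter of *TAP1* is shown because it holds an interferon-stimulated response element (ISRE), here searched on both strands as GAAA, any 2 bases, then GAAA. Its 250 bases (RefSeq, chr6:32821482-32821731, minus strand, GRCh37) are printed in the direction of the gene, with the motif in capitals.
TAP1: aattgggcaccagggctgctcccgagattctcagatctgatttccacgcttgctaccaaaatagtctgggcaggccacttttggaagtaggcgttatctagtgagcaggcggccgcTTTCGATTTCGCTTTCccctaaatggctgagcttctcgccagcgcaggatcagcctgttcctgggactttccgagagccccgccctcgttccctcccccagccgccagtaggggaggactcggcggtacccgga
The motif was read on the opposite strand, as 2 overlapping copies that start 134 and 128 bases before the start site. It occurred in 8 of 14 promoters of the class I list, in 4.24% of promoters of genes that rose, 1.59% of those of genes that fell and 2.59% of all tested promoters. The NF-κB motif, searched as GGGAA, any 2 bases, then CCC, which overlaps TGGGAA where a T precedes it, occurred in 3.43%, 2.03% and 2.81%. A match is a description of the letters, not a site that was shown to be bound.

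Nucleic acid sensing genes rose in part. *STING1* (chromosome 5, 138855118 to 138862520), the adaptor of the cGAS pathway that senses cytosolic DNA, had log2 values of 0.24, 0.41 and 0.20 with DMSO and 2.54, 2.04 and 2.03 with TAS1440, a log2 fold change of 1.92 (SE 0.14, limma adjusted *P* = 1.23e-07). Each TAS1440 library was above every DMSO library by more than 1.5. The double-stranded RNA receptor gene *TLR3* (3.34), its adaptor gene *TICAM1* (1.86) and *DHX58* (1.68) rose as well. In this list 8 of 15 tested sensing genes rose, against 15.3% of all genes, with a median of 1.08. *CGAS* (0.63), *TBK1* (-0.052), *IRF3* (0.19) and *MAVS* (0.26) were not called.

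Of 36 tested interferon response genes, 30 rose and 1 fell, against 15.3% and 7.46% of all genes, with a median of 1.92. *BST2* (chromosome 19, 17513748 to 17516439), the membrane protein tetherin, had log2 values of 2.45, 0 and 0 with DMSO and 6.47, 7.52 and 8.00 with TAS1440, a log2 fold change of 6.51 (SE 0.71, limma adjusted *P* = 4.45e-06). It was listed at 0 in DMSO libraries 11 and 12 and at 2.45 in library 10. *XAF1* (chromosome 17, 6658766 to 6678966), a proapoptotic interferon target, was listed at 0 in all 3 DMSO libraries and had 4.83, 5.37 and 5.44 with TAS1440. It passed the filter only through the TAS1440 libraries, so the filter set its direction. *GBP3*, a guanylate-binding GTPase, rose by 5.07, and *ISG20* fell (-1.32). *IRF2* (0.43), *HERC5* (0.67) and *USP18* (-0.52) were not called. Several classical interferon genes were too low to test. *IFI27* (chromosome 14, 94571182 to 94583032) had 0.18, 0.25 and 0.16 with DMSO and 0.41, 0.16 and 0.27 with TAS1440, and with *MX1*, *OAS1*, *OAS2*, *IFIT1* and *IFI44L* was among the 13 of 49 genes of the list below the filter.

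The promoters of *BST2* and *CD274*, the gene for PD-L1, are shown because both hold ISRE letters and both genes rose. The 250 bases before the start sites (RefSeq, chr19:17516440-17516689, minus strand for *BST2* and chr9:5450292-5450541, plus strand for *CD274*, GRCh37) are printed with ISRE, the E-box CAGCTG and TGGGAA in capitals. The RefSeq starts of *CD274* and *TAP1* lie inside the gene spans given here.
BST2: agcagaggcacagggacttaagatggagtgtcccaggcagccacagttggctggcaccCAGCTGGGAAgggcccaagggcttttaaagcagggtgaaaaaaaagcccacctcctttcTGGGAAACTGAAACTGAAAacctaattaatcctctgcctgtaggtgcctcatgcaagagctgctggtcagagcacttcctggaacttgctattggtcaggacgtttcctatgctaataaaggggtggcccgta
CD274: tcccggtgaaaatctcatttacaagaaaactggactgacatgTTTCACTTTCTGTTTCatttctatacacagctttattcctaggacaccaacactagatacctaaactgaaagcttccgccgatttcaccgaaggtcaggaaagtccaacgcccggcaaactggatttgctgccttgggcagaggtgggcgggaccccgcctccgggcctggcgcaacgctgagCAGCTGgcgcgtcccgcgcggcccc
In *BST2*, overlapping ISRE copies start 130 and 124 bases before the start site, TGGGAA starts 188 and 133 bases before it, overlapping the first ISRE copy and the E-box at 192. In *CD274* the ISRE was read on the opposite strand, starting 208 and 202 bases before the start, and CAGCTG starts 25 bases before it. CAGCTG occurred in 17.0% of all tested promoters, 17.8% of those of genes that rose and 17.5% of those of genes that fell. ISRE occurred in 15 of 30 promoters of the interferon response list, 1 of 25 of the synaptic list and 0 of 14 of the NE transcription factors.

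Cytokine receptor genes rose in 10 of 18 cases, against 15.3% of all genes, with a median of 1.07. *OSMR*, the oncostatin M receptor (5.11), *IL6R* (3.26), *SOCS3*, a feedback inhibitor (2.88), and *IL4R* (2.42) rose most, and *IFNGR2* (0.17), *JAK2* (0.61) and *IFNAR1* (0.48) were not called. *IL4R* passed the filter only through the TAS1440 libraries, so the filter set its direction. Only 8 of 30 chemokine and cytokine genes in the table passed the filter, of which 7 rose, against 15.3% of all genes. *IL32* (5.55), *CSF1*, a macrophage growth factor (4.80), *TNFSF10*, which encodes TRAIL (4.70), and *CXCL2* (2.84) led. *IL18* (1.72) passed only through the TAS1440 libraries, and leaving out any of them left 7 genes tested. The T cell chemokine gene *CXCL10* (chromosome 4, 76942271 to 76944650) had 0, 0 and 0 with DMSO and 0, 0.19 and 0.38 with TAS1440, and *CXCL9* was listed at 0 throughout, so neither was tested. Of 16 NF-κB genes 8 rose (median 1.09), against the same 15.3%. Among them were the feedback gene *TNFAIP3* (3.49), the adaptor gene *MYD88* (1.72), *NFKB2* (1.48) and *NFKBIZ* (1.55), while *RELA* (0.43) was not called. *BIRC3* (1.41), also counted, passed the filter only through the TAS1440 libraries, so the filter set its direction.

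Ligands for NK cells and immune checkpoints rose in 10 of 13 tested cases, against 15.3% of all genes, with a median of 1.29. *CD274* (chromosome 9, 5450503 to 5470566), the gene for PD-L1, had log2 values of 0.82, 1.07 and 0.77 with DMSO and 4.88, 3.82 and 3.01 with TAS1440, a log2 fold change of 3.01 (SE 0.43, limma adjusted *P* = 5e-05). All TAS1440 values were above all DMSO values, and the TAS1440 libraries differed by up to 1.9. *ICAM1*, the adhesion ligand of lymphocytes (5.12), the death receptor gene *FAS* (3.15) and the NKG2D ligand gene *ULBP2* (3.05) rose, and *ULBP1* (-0.15) and *PVR* (0.87) were not called. Of T cell markers, *CD3D*, *CD3E* and *CD2* were listed at 0 in all 6 libraries, and 6 T cell markers summed to 0.568 to 2.43 with DMSO and 2.29 to 3.40 with TAS1440. Most of each sum came from *CD8A*, whose values are given under the other observations.

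Cell death genes rose in 10 of 23 tested cases, with 1 fall, against 15.3% and 7.46% of all genes, and a median of 0.54. The caspase-8 gene *CASP8* (2.04), *CASP4* (2.31), the necroptosis effector gene *MLKL* (2.63) and the gasdermin gene *GSDMC* (2.91) rose most, *BCL2*, the apoptosis inhibitor, fell (-1.97), and *BAX* (-0.034) and *MCL1* (0.54) were not called. *CASP10* (1.72), also counted, passed the filter only through the TAS1440 libraries, so the filter set its direction. Cell cycle genes fell in part. *MKI67* (chromosome 10, 129894923 to 129924687), the proliferation marker, had log2 values of 7.52, 7.53 and 6.84 with DMSO and 5.52, 6.60 and 5.93 with TAS1440, a log2 fold change of -1.28 (SE 0.27, limma adjusted *P* = 0.001), and its groups did not overlap. Of 32 tested cell cycle genes 12 fell and 1, the cyclin E gene *CCNE1* (1.75), rose, against 7.46% and 15.3% of all genes. The median was -0.92. *TOP2A* (-1.89), *AURKB* (-1.64), *CENPF* (-1.48) and *BIRC5* (-1.48), of chromosome segregation, had the largest falls, and the replication genes *MCM6* (-0.0089) and *PCNA* (-0.29) were not called. Over all alternatives this list had 8 to 19 falls, with 19 after centring or quantile normalization.

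*CDKN1A* (chromosome 6, 36644237 to 36655114), the gene for the CDK inhibitor p21, had log2 values of 2.84, 2.29 and 3.34 with DMSO and 5.55, 6.29 and 6.38 with TAS1440, a log2 fold change of 3.25 (SE 0.30, limma adjusted *P* = 9.9e-07), and every TAS1440 library was above every DMSO library by more than 2. *CDKN2B* (2.62), *CCND1* (2.19) and *CDK6* (3.81) rose, *CDKN2D* fell (-2.47), and *RB1* (-0.37) and *CDKN1B* (-0.14) were not called. Of 13 tested genes of this list 5 rose and 1 fell, against 15.3% and 7.46% of all genes. The list's median of -0.14 changed sign to 0.17 after quantile normalization.

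Surface proteins with therapeutic interest went both ways, with 4 rises and 3 falls among 12 tested, against 15.3% and 7.46% of all genes. *DLL3*, *NCAM1* (-2.25) and *SEZ6* (-1.80) fell, *EPHA2* (5.69), *EGFR* (3.23) and *FGFR1* (1.57) were among those that rose, and *CD276* (0.99), *KIT* (0.20) and *MET* (0.65) were not called. Of 15 polycomb and DNA methylation genes only *DNMT3B* (-1.33) was called, and 7.46% of all genes fell, while *EZH2* was at -0.19. Cholesterol synthesis genes fell in 7 of 17 cases, against the same 7.46%, with a median of -0.98, including *INSIG1* (-2.43), *HMGCS1* (-1.65), *SQLE* (-1.58) and *FDFT1* (-1.45), and *FDPS* (0.0043) was among those not called. Of 4 tested genes of tuft cells, *POU2F3*, the tuft cell factor (2.21), and *SOX9* (1.86) rose, against 15.3% of all genes.

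**Figure D3:**
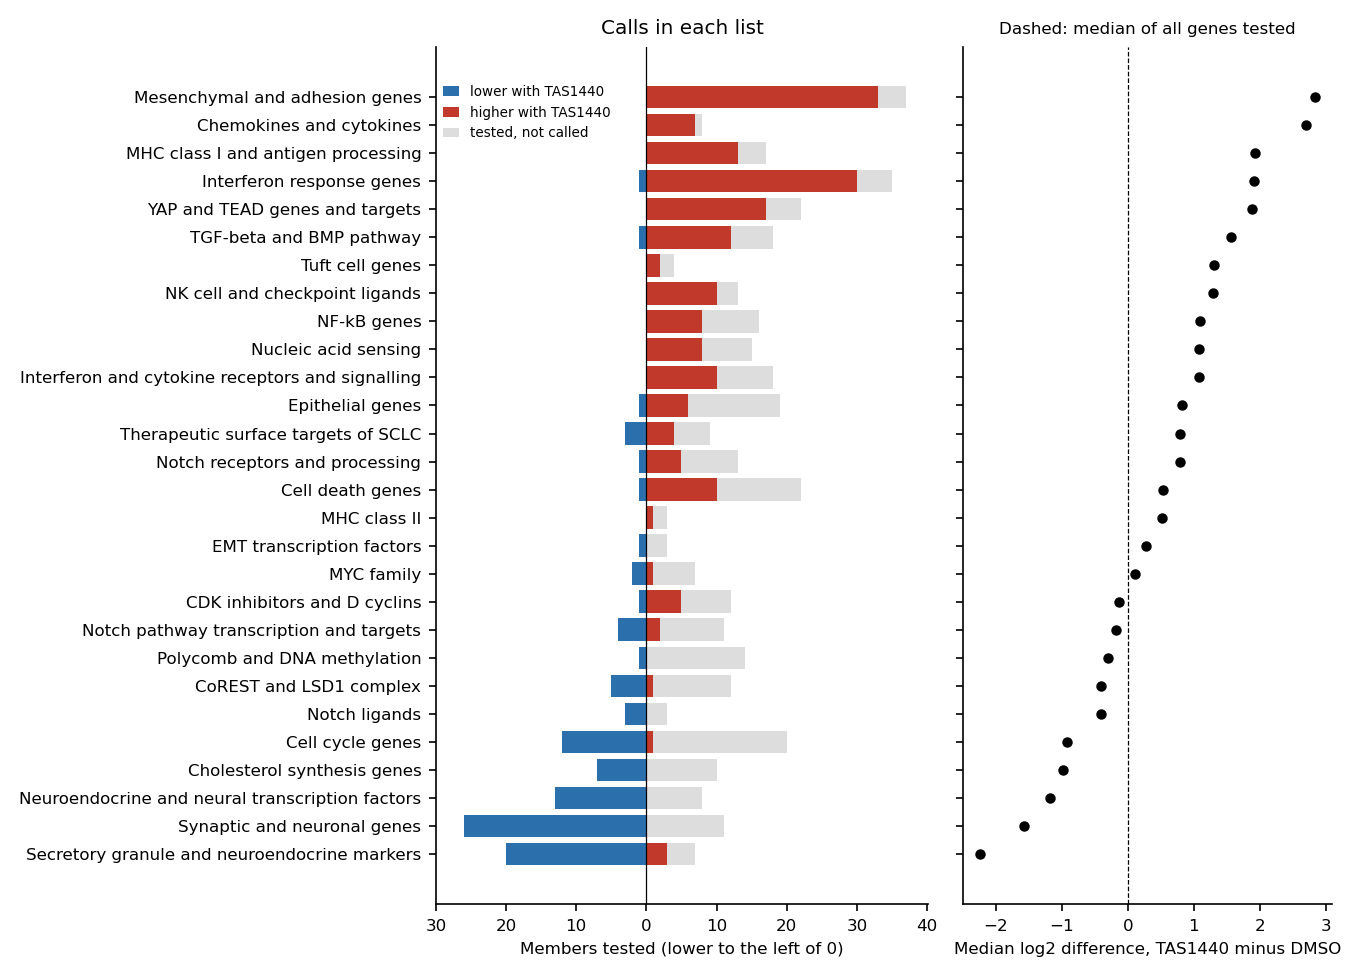
Left, number of members of each of 28 gene lists that were lower with TAS1440 (to the left of 0), higher, or tested and not called; right, median log2 difference of the tested members, with the median of all genes tested dashed. Mesenchymal genes (33 of 37 higher, median 2.84) and secretory granule genes (20 of 27 lower, median -2.25) lie far to either side.

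Some genes were listed at 0 in every library of a group. There were 38 such genes at 0 with DMSO and at 1 or more in every TAS1440 library, and 11 the other way. The complement gene *CFI* (chromosome 4, 110652164 to 110723306) had 5.87, 5.91 and 6.31 with TAS1440, followed by *XAF1*, *NMRK2* (5.54, 5.56 and 3.48), the gap junction gene *GJA1* (4.28, 5.68 and 4.33), *MSC*, *SMCO3*, *S100A11* and *IFITM2*, which has a near-identical copy among which counting can split reads. In the other direction were *LGALS14* (3.26, 3.82 and 4.67 with DMSO), *NRSN1*, a neuronal membrane gene (3.94, 3.60 and 3.69), *C17orf100*, *NTM*, *ATP4A*, *TCP11X1*, *TMEM89* and *NPPA*. No fold change or difference is given for a gene where a compared group is at 0 in all its libraries.

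The response to TAS1440 was compared between STING_KO cells and cells without that label. No control library for Cas9 delivery, selection or cloning was used here. Disruption of *STING1* and the derivation of the STING_KO cells thus cannot be told apart. Some immune, adhesion and NE genes responded less in STING_KO cells, while no difference was called for *REST*, *VIM*, *YAP1*, *CHGA* and *SYP*. *STING1* itself had log2 values of 0.12, 0.36 and 0.096 in the 3 DMSO libraries and 1.16, 1.09 and 0.96 in the 3 TAS1440 libraries of STING_KO cells. It was thus still read as RNA, at lower values with TAS1440 than in cells without the disruption (2.54, 2.04 and 2.03), and RNA does not show whether the protein was lost. The study's supplement holds an immunoblot of *STING1* knockout clones of COR-L88, which was not used here. The interaction term of limma, the response in STING_KO cells minus the response in cells without it, was called for 556 genes (4.23%), with 121 (0.921%) higher and 435 (3.31%) lower. The DMSO and TAS1440 libraries of the main comparison enter this term. STING_KO library 44 stood apart from 43 and 45, and the count was 909 without it, 335 without library 43 and 364 without DMSO library 11. The split was 176 higher and 332 lower after centring, 189 and 418 after quantile normalization and 174 and 340 with a pseudocount of 0.1.

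*HLA-B* had log2 values of 0.16, 1.41 and 0.50 with DMSO and 2.80, 4.91 and 2.31 with TAS1440 in STING_KO cells. That is a response of 2.65 against 6.44 without the disruption, and the difference of -3.79 (SE 0.79, limma adjusted *P* = 0.0137) was called, but not with a pseudocount of 0.1 (limma adjusted *P* = 0.0899). *PSMB9* had 0, 0 and 0 and 2.20, 4.56 and 3.01 and was called as well. Both genes were highest in library 44. *B2M* (difference -1.65), *TAP1* (-2.23), *NLRC5* (-1.18) and *CD274* (-2.66) also responded less. *STING1* had a difference of -1.04, but it is the disrupted gene itself.

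Some genes that were at or near 0 with DMSO were there with TAS1440 as well in STING_KO cells. *CD44* had log2 values of 0, 0 and 0 with DMSO and 0.056, 0 and 0 with TAS1440, and *XAF1* was listed at 0 in both STING_KO groups. *S100A11*, a calcium-binding protein, was listed at 0 with DMSO and was at 0.20 ± 0.35 (mean ± SD, n = 3) with TAS1440, against 4.24 ± 0.54 with TAS1440 without the disruption. The interaction term was called for these 3 genes, of which *XAF1* and *S100A11* passed the filter only through the TAS1440 libraries without the disruption. For both, the sign of the difference was thus set by the filter. The cytokine gene *IL32* was at 2.35 ± 0.32 with TAS1440 in STING_KO cells, with a difference of -3.90 (SE 0.75).

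By list, the response was called smaller in STING_KO cells for 8 of 17 class I genes, 9 of 36 interferon response genes, 14 of 37 mesenchymal genes, 5 of 13 NK and checkpoint ligands and 3 of 8 chemokine genes, against 3.31% of all genes. Leaving out each library in turn, an alternative chosen after seeing the data, gave 4 to 10, 4 to 17, 6 to 17, 1 to 7 and 1 to 3 genes. Without library 43 the first 3 counts were 4, 5 and 8, and without library 44 they were 10, 17 and 17. The interferon response and mesenchymal counts include *XAF1* and *S100A11*, whose sign was set by the filter. *ACTA2*, *ITGA5* and *IL18* also passed it only through the TAS1440 libraries without the disruption. A called difference of theirs could only be negative. Mean log2 values over the class I list were 3.83, 4.00 and 3.90 with DMSO and 4.90, 5.62 and 4.90 with TAS1440 in STING_KO cells, against 4.36, 3.97 and 4.03 with DMSO and 6.41, 6.49 and 6.74 with TAS1440 without the disruption. The class I mean was thus higher with TAS1440 in STING_KO cells too.

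Some NE genes differed too. *INSM1* had log2 values of 7.23, 7.28 and 7.16 with DMSO and 4.94, 3.86 and 5.15 with TAS1440 in STING_KO cells, a response of -2.57 against -4.79 without the disruption (difference 2.22, SE 0.35, limma adjusted *P* = 0.00342). *DLL3* responded by -1.83 (difference 1.17), *MYCL* by -1.11 (1.74) and *GRP* by -4.34 (1.80). The neuropeptide gene *ADCYAP1* (2.45), *LFNG* (2.22) and *DLL4* (2.11) were also called, *DLL4* not under 10 of 18 alternatives. All 7 genes responded less in STING_KO cells, but the calls of *DLL3* and *MYCL* also depended on the libraries. When each library was left out, positive calls ran from 0 to 2 in the Notch ligand list and from 0 to 1 in the MYC list. By list, the difference was called positive for 6 and negative for 0 of 27 secretory granule and NE genes, for 2 and 1 of 21 NE transcription factors and for 0 and 4 of 37 synaptic genes, against 0.921% and 3.31% of all genes. When each library was left out, the secretory granule list had 3 to 5 positive calls in place of 6, the transcription factors 2 to 3 and the synaptic list 1 to 4 negative calls.

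*HES1* went from 5.16, 5.51 and 5.13 with DMSO to 3.26, 2.98 and 3.99 with TAS1440 in STING_KO cells, without overlap, a difference of -1.74 (SE 0.34, limma adjusted *P* = 0.0105). *NOTCH1* had 1.06, 0.97 and 0.96 and 4.58, 2.82 and 4.93, and its difference of 1.42 (SE 0.55) was not called. *REST* (-0.17), *NOTCH2* (-0.27), *YAP1* (0.23), *VIM* (-0.11), *CHGA* (0.020) and *SYP* (-0.31) were not called either. Their responses in STING_KO cells were 2.72, 2.12, 5.37, 5.70, -3.57 and -4.77. A difference that was not called does not show equal responses, and the SE of the *VIM* difference was 0.31.

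**Figure D4:**
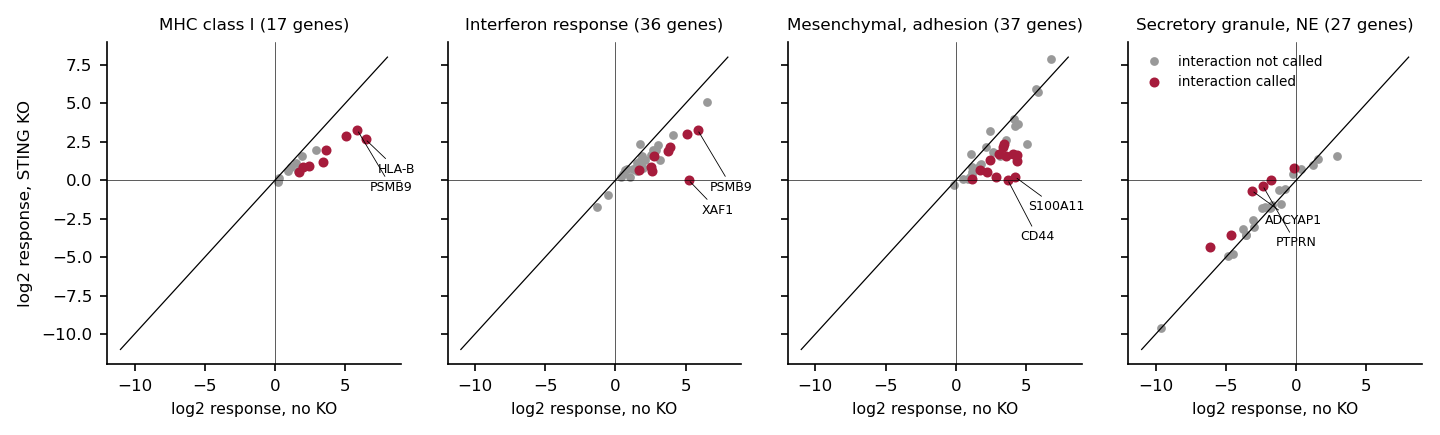
log2 response to TAS1440 of each tested gene of 4 lists in COR-L88 cells without (x axis) and with (y axis) the STING_KO label, 1 point per gene, with the line of equal responses and red points for genes whose difference was called. The called class I (8), interferon response (9) and mesenchymal (14) genes lie below the line, and the 6 called secretory granule genes lie above it.

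With GSI beside TAS1440, much of the immune and mesenchymal response was smaller, *INSM1* and *MYCL* were nearer to their DMSO values, and *CHGA*, *SYP* and *REST* were not called as different. TAS1440 was compared with TAS1440 plus GSI, and the TAS1440 libraries are those of the comparisons above. Of the genes tested 1935 (14.7%) were called, 1367 (10.4%) higher and 568 (4.32%) lower with TAS1440 alone, or 1129 and 792 after centring and 1183 and 788 after quantile normalization. *HES1* had log2 values of 1.97, 2.30 and 2.23 with GSI, below all other COR-L88 libraries, a difference of 2.36 (SE 0.24, limma adjusted *P* = 7.9e-06). *NOTCH1* had 6.73, 6.71 and 6.75, above all other COR-L88 libraries, a difference of -4.38 (SE 0.39). *KDM1A* had 5.42, 5.43 and 5.38, near the DMSO values.

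*HLA-B* had log2 values of 3.00, 1.56 and 1.85 with TAS1440 plus GSI, a difference of 5.38 (SE 0.56, limma adjusted *P* = 8.38e-06). *STING1* had 0.86, 0.78 and 0.86 (1.37) and *CD274* had 1.00, 0.77 and 0.30 (3.21). All 3 genes were below every library with TAS1440 alone. In the lists, 12 of 17 class I, 28 of 36 interferon response and 27 of 37 mesenchymal genes were higher without GSI, against 10.4% of all genes. *XAF1*, *ACTA2*, *ITGA5* and *S100A11* of these lists passed the filter only through the libraries with TAS1440 alone. If called, they could only be higher without GSI. *S100A10* (4.64), *OSMR* (4.35) and *ANXA1*, for an annexin (4.31, or 6.62 with a pseudocount of 0.1), had large differences too, and *XAF1* was listed at 0 in all 3 libraries with GSI. Not all reached DMSO values, and *VIM* had 6.67, 6.24 and 6.24 and *YAP1* had 4.98, 4.85 and 4.75 with GSI, with differences of 1.19 and 1.35.

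*INSM1* had log2 values of 5.80, 5.66 and 5.80 with GSI, a difference of -3.63 (SE 0.25, limma adjusted *P* = 5.84e-07), and *MYCL* had 8.28, 8.39 and 8.66 (-3.33). *CACNA1A* was at 4.85 ± 0.29 (-3.77). These 3 genes were higher with GSI than with TAS1440 alone. In contrast *REST* had 6.31, 6.19 and 6.32, *CHGA* had 0.52, 0.22 and 0.39 and *SYP* had 0.69, 0.66 and 0.53, with differences of 0.16, 0.75 and -0.14 that were not called. Of 27 secretory granule and NE genes 7 were higher and 2 lower without GSI, and of 21 NE transcription factors 1 and 4, against 10.4% and 4.32% of all genes.

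**Figure D5:**
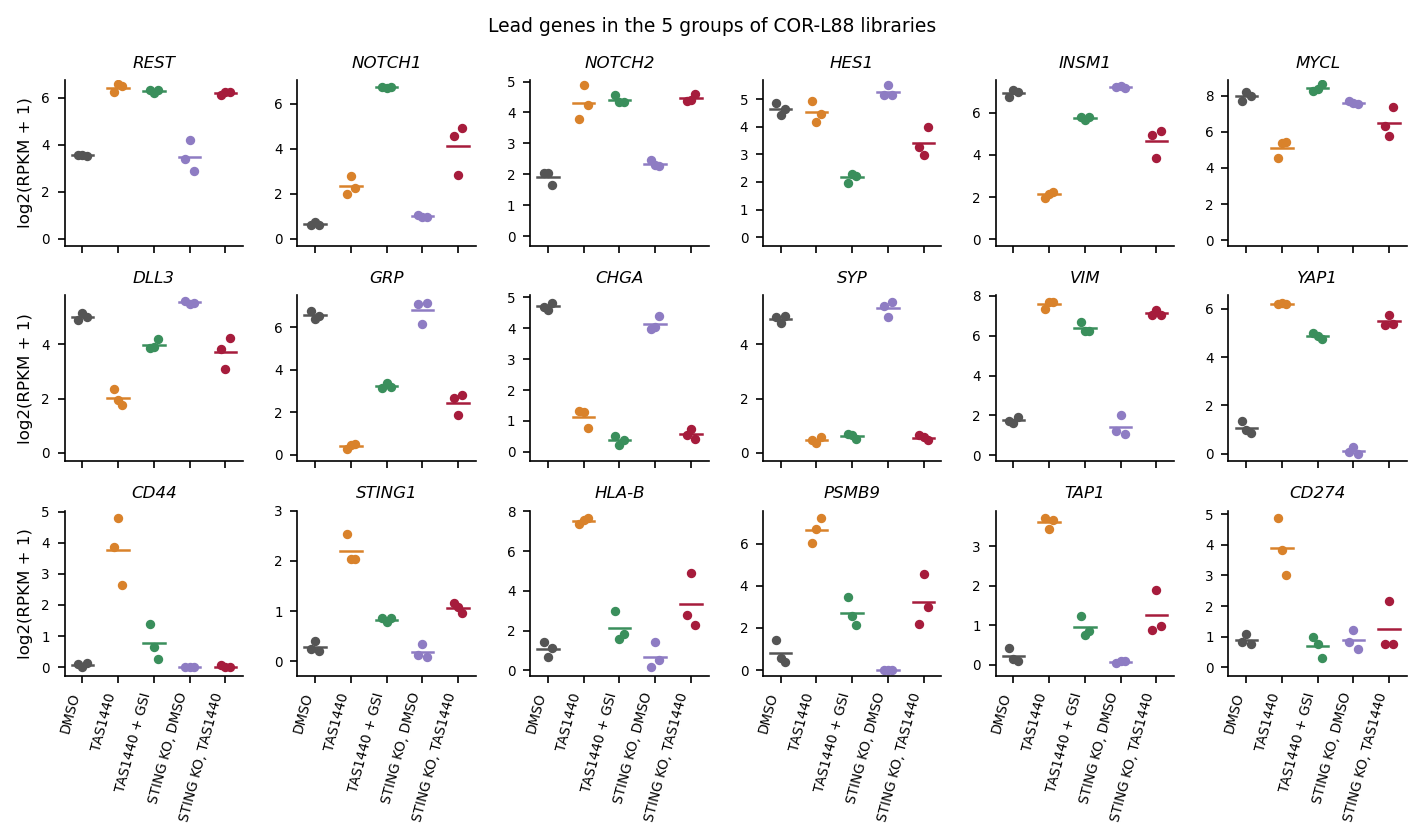
log2(RPKM + 1) of 18 lead genes in the 5 groups of COR-L88 libraries, with points for the 3 libraries and lines for means. NOTCH1 is highest and HES1 lowest with TAS1440 plus GSI, and CD44 is near 0 in both STING_KO groups.

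NCI-H69 cells with induced N1ICD were compared with TAS1440 in COR-L88 cells. Line, agent, vector, duration and collection differ together between these groups and cannot be told apart. H69 library 49, without doxycycline, stood apart from 50 and 51, with *MYC* at 6.75 against 1.35 and 1.04 and *VIM* at 1.36 against 0 and 0. The difference of the responses, COR-L88 minus H69, was called for 5970 of 14606 genes (40.9%), 3189 (21.8%) higher and 2781 (19.0%) lower, and 5775 were called without library 49. The TAS1440 and DMSO libraries of the main comparison enter this term as well.

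Over the 17 class I genes tested in COR-L88 cells, the median response was 1.92 with TAS1440 and 2.64 with doxycycline in H69 cells. *HLA-B* responded by 7.19 with doxycycline and 6.44 with TAS1440, and the difference of -0.75 (SE 0.70, limma adjusted *P* = 0.358) was not called. *STING1* responded by 2.55 (difference -0.63, not called). In the model with H69, which tested 19 class I and 46 interferon response genes, the response was called smaller in COR-L88 than in H69 cells for 5 and 20 of them, and larger for 0 and 7, against 19.0% and 21.8% of all genes. The COR-L88 model tested 17 and 36 genes of these lists. Genes added by the H69 libraries were low in COR-L88 cells, and the filter could set the sign of their difference.

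Of NE transcription factors 20 of 28 tested had a positive and 3 a negative called difference, of secretory granule and NE genes 14 and 4 of 27, and of mesenchymal genes 10 and 27 of 46, against 21.8% and 19.0% of all genes. The COR-L88 model tested 21, 27 and 37 genes of these lists. Genes added by the H69 libraries, such as *COL1A1*, were low in COR-L88 cells. For them the filter could set the sign of the difference. *INSM1* responded by -8.34 in H69 cells (difference 3.55) and *CHGA* by -6.06 (2.47). Among list and lead genes, *PCSK2* (9.85), *ESRP1*, an epithelial splicing factor (8.29), and *SYT1* (7.61) had large positive differences. Their responses in H69 cells were -8.33, -8.49 and -6.92. *NEUROD1* was at 9.39 ± 1.06 without doxycycline and was listed at 0 in all 3 libraries with it. On the other side were the collagen genes *COL3A1* (-11.84) and *COL1A1* (-9.69), the smooth muscle actin gene *ACTA2* (-9.57), *SPARC* (-8.56) and *CALD1* (-7.97), all higher with doxycycline in H69 cells by more than with TAS1440 in COR-L88 cells. *HEY1* responded by 2.00 in H69 cells, with a difference of -3.17, and *HES1* by 0.52 (-0.64, not called).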

How the data were processed

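RNA-Seq libraries were made from polyA RNA with a stranded mRNA kit and sequenced as paired ends. The deposited values are log2(RPKM + 1): the authors trimmed reads with Cutadapt, aligned them to hg19 with STAR, estimated counts per gene with RSEM and computed RPKM after TMM normalization in edgeR (versions and gene lengths not given in the sources used here). Counts were not used here, so absolute depth is unknown and no counting error is given.

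Groups followed the sample labels. limma 3.58.1 (R 4.3.3) with a variance trend stood in for the count-based limma voom of the authors. The COR-L88 model held all 5 groups (13134 genes at log2 of at least 1 in at least 3 libraries), and the model with H69 added 2 groups (14606 genes). Tests were two-sided with Benjamini-Hochberg adjustment over all genes tested. The fits were tested on simulated data.

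Named genes were lead genes, up to 10 called genes per direction with no overlap and a mean of at least 2 in the higher group, up to 4 called members of each list per direction and members that did not pass, up to 8 genes listed at 0, and up to 5 list or lead genes per direction for each difference of responses. Members that complete a short count were named as well. The members and lists were chosen with earlier results of these data known. Promoter sequences came from a RefSeq table (GRCh38.p14) with entries for 9849 tested genes, and those printed matched GRCh37 at 1 place. *STING1*, *HEY1*, *INSM1* and *NLRC5* had no entry. Gene positions are of GRCh37. Alternatives were the filter, pseudocount, scaling, samples in the model, variance trend and leaving out each library. A table of mouse libraries was not used. Some genes that these rules take are not reported here, though list counts and medians include them.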

Additional observations from a re-analysis of the deposited data

Results flagged for a closer look

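The response to TAS1440 differed between COR-L88 cells without and with STING_KO for 556 genes by the limma interaction term. Among list and lead genes the differences on the positive side, STING_KO minus without, included 2.45 for *ADCYAP1*, 2.22 for *INSM1*, 2.22 for *LFNG* and 2.11 for *DLL4*. On the negative side they included -3.90 for *IL32* and -3.79 for *HLA-B*. Genes at 0 in all libraries of a group are left out here.

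The response differed between COR-L88 cells given TAS1440 and H69 cells with induced N1ICD for 5970 genes by the same kind of term, with line, agent, vector, duration and collection changing together. The differences, COR-L88 minus H69, were 9.85 for *PCSK2*, 8.29 for *ESRP1*, 7.61 for *SYT1*, -11.84 for *COL3A1*, -9.69 for *COL1A1*, -9.57 for *ACTA2*, -8.56 for *SPARC* and -7.97 for *CALD1*. *COL1A1* passed the filter only with the H69 libraries.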

How the results depend on the processing

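The count of 2991 genes was 2846 to 3066 when each library was left out and within 1.5 times under the filter, pseudocount, scaling, model and trend alternatives. Of 130 called genes that the naming rules took, 124 stayed called under all alternatives in which they were tested. *XAF1*, *KRT7* and *IL4R* were tested under 9 of 12 alternatives, since they failed the filter when any TAS1440 library was left out. *HEY1* (without library 13), *PHF21A* (without 11), *ADAM17* (both scalings), *DLL1* and *DSP* (without 11 or 13) and *DTX3* (without 13) lost the call, as did *NCSTN* (both scalings and without 12, 14 or 15) and *HMG20B* (without 11 or 13), which the rules did not take, *KDM1A* gained it under a pseudocount of 0.1, both scalings and without library 15, and *HES1* reversed without library 14, with a range of -0.32 to 0.051. The count for STING_KO was 335 to 909 (76 to 210 higher, 259 to 699 lower) when each library was left out, lowest without 43 and highest without 44, and 189 were higher after quantile normalization. With a pseudocount of 0.1, 853 genes were lower with TAS1440 than with added GSI, in place of 568. With a limit of 0.5 in the other group, 70 in place of 38 genes were listed at 0 with DMSO and 19 in place of 11 with TAS1440, and 13 to 20 of the latter when each library was left out. The causes were not tested. No paired analysis was possible because the compared groups share no library numbers. Without absolute depth, genes listed at 0 cannot be told apart from genes below detection.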

Other observations

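Among transcripts outside the comparisons, the interferon gene *IFNB1* had log2 values of 0, 0 and 0 with DMSO and 0, 0 and 1.06 with TAS1440, and *IL6* had 0.071, 0 and 0.028 with DMSO and 2.19, 0.94 and 1.75 with TAS1440. Neither passed the filter on low values. *CXCL5* had 1.81, 0.56 and 0.29 with TAS1440 and *AXL*, a receptor kinase, had 1.02, 2.82 and 0.82, against 0, 0 and 0 with DMSO. *CD8A*, named after its values were seen, had 0.57, 1.39 and 2.14 with DMSO and 2.29, 3.19 and 2.57 with TAS1440.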
